A study of Mus musculus with 6 samples.

Results

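The Bcl2 family, the set of proteins that decides whether a cell keeps its mitochondria intact or dies by apoptosis, was examined in LSK cells of WT and Tet1 KO mice. The members named for the set were 10 genes, and every probe set whose platform annotation gave exactly 1 gene symbol, equal to a member, was taken. This gave 29 probe sets of 9 genes, out of 45037 probe sets that were not controls and 18193 genes with such a probe set. Bax had no probe set under this rule and is not analysed here. Both groups came from bone marrow of 6-month old mice, with the strain given as CD57BL/6. The WT group had 3 samples and carried no named alteration, and the Tet1 KO group had 3 samples that lacked Tet1, with the allele not given in the sources used here. LSK cells carry Sca-1 and Kit but no mature lineage markers, and they hold the haematopoietic stem cells with the earliest progenitors. Tet1 oxidises 5-methylcytosine in DNA, and the title of the series treats the gene as a suppressor of blood cancers. Whether the replicates are separate mice is not stated in the labels, and the p-values therefore refer to the spread among these arrays, part of which may be technical.

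Members of the family fall into 3 kinds. Survival proteins such as Bcl2, Mcl1 and Bcl2l1 (Bcl-xL) hold the effectors in check. The effectors Bax and Bak1 form pores in the outer mitochondrial membrane that release cytochrome c. The BH3-only proteins, here Bcl2l11 (Bim), Bid, Bad, Bbc3 (Puma) and Pmaip1 (Noxa), sense stress and either block the survival proteins or activate the effectors. In blood, stem cells depend on Mcl1, and the overexpression of Bcl2 is a classic event in lymphoma. Transcript levels are only part of the regulation, since Mcl1 protein is short-lived, Bid is activated by cleavage and Bad is controlled by phosphorylation.

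Because Tet1 acts on methylated cytosines at CG dinucleotides, the promoters of 3 members are shown. They are Bak1 and Mcl1, most of whose probe sets pointed one way, and Bcl2, which gave the family its name. Each sequence is the 250 bases before an annotated start, from RefSeq on GRCm38.p6, in the direction of transcription, with each CG in capitals. Mcl1 lies at chr3:95658471-95658720 on the plus strand, Bak1 at chr17:27028628-27028877 on the minus strand and Bcl2 at chr1:106714291-106714540 on the minus strand.
Mcl1: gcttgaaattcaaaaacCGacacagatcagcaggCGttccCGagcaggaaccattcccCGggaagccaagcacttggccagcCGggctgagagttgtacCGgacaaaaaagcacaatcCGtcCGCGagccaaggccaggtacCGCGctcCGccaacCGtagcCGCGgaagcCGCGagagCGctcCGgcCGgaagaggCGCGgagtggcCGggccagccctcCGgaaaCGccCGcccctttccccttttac
Bak1: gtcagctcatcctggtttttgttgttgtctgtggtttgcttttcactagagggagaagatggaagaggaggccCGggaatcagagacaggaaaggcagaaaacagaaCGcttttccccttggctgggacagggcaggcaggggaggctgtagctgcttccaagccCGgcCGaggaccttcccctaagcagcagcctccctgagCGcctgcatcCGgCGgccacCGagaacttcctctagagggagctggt
Bcl2: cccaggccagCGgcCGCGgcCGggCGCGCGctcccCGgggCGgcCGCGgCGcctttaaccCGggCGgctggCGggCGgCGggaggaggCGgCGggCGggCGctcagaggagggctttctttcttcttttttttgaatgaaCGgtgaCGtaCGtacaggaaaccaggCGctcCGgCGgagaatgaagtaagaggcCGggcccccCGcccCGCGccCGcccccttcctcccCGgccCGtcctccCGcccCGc

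The Bcl2 window held 36 CG dinucleotides, the Mcl1 window 26 and the Bak1 window 8. At least 1 CG was present in 92.1% of 32851 such windows over all genes, with a median of 6. As many CG as in Bcl2 occurred in 2.58% of windows, as many as in Mcl1 in 9.59% and as many as in Bak1 in 43%. Of the 10 members, 9 had at least 1 window, 15 windows in all. These windows ran from 0 CG at a start of Bcl2l1 to 37 at a start of Bbc3. Methylation was not measured on these arrays, so the letters describe the sequence alone.

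Values are log2 intensities, 1 per probe set and array, so a difference of 1 is a doubling. A p-value is that of limma's moderated test over all 45037 probe sets, and adjusted means by the Benjamini-Hochberg method with a threshold of 0.05. For a single value the exact permutation test has a floor of 0.1 at this group size. As a guide to background, the brightest of 27 probe sets for bacterial control transcripts was taken on each array, and the mean, 4.39, is called the bacterial control level. Tet1 itself separated the groups at each of its 4 probe sets, lower in Tet1 KO, with means of 6.43 ± 0.24 and 4.75 ± 0.64 at 1419896_at (SD, n = 3 each). Its unadjusted p in limma ran from 0.00171 to 0.0103, but the adjusted p was 0.686 at each probe set. Even the gene named as lost did not pass the adjusted test. The stem cell receptor gene Kit read 9.68 to 10.02 at 1452514_a_at, and Cd34 read 10.57 to 10.98, both well above the control level on all 6 arrays. At the other Kit probe set, 1415900_a_at, the groups did not overlap, with 8.64 ± 0.17 in WT and 8.09 ± 0.26 in Tet1 KO (SD, n = 3 each) and an adjusted p of 0.686 in limma. Sca-1 (Ly6a) is not analysed here. Xist, which is transcribed from an inactive X chromosome, was below the control level at 1427262_at in replicate 3 of each group, at 3.83 and 3.65, and lay at 11.58 or above on the other arrays. Tet1 KO replicate 2 stood apart, with the brightest bacterial control, 4.87 against 4.21 to 4.37 on the other arrays. Arrays were not identical in any pair, and their correlation over probe sets ran from 0.936 to 0.984.

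No member passed the adjusted test. Of 29 member probe sets, 15 had a higher mean in Tet1 KO, or 51.7% against 57.1% of all probe sets, and 14 a lower one, with a median difference of 0.05 on the log2 scale, against 0.06 over all probe sets. The median absolute difference was 0.25, against 0.22 over all. At an unadjusted p under 0.05 in limma there were 2 member probe sets, or 6.90%, against a background of 6.81% of all probe sets. Both were lower, 1 of Bak1 and 1 of Bcl2l11, where 3.58% of all probe sets were lower and 3.23% higher at that level. Groups did not overlap at 5 member probe sets, or 17.2%, against 16.2% of all. Of these, 3 were higher and 2 lower in Tet1 KO, where the background was 9.96% higher and 6.29% lower. These shares lie near the background of all probe sets, which holds many dim ones. Both group means were below the control level at 15203 of 45037, against 2 of the 29. In the fit to probe sets above that level, the median difference was -0.04. At an unadjusted p under 0.05 in limma, 29.7% of 1713 were then higher in Tet1 KO. The number with an adjusted p under 0.05 was 0 of 45037 over the whole table in limma, or 1 with an intensity trend. The lowest adjusted p of a member was 0.686. The count of 2 depended on single arrays. It was 4 without Tet1 KO replicate 2, where 8.01% of all probe sets reached that level. It was 1 without WT replicate 1 and 0 without WT replicate 2, where the shares over all probe sets were 3.46% and 3.48%.

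**Figure D1:**
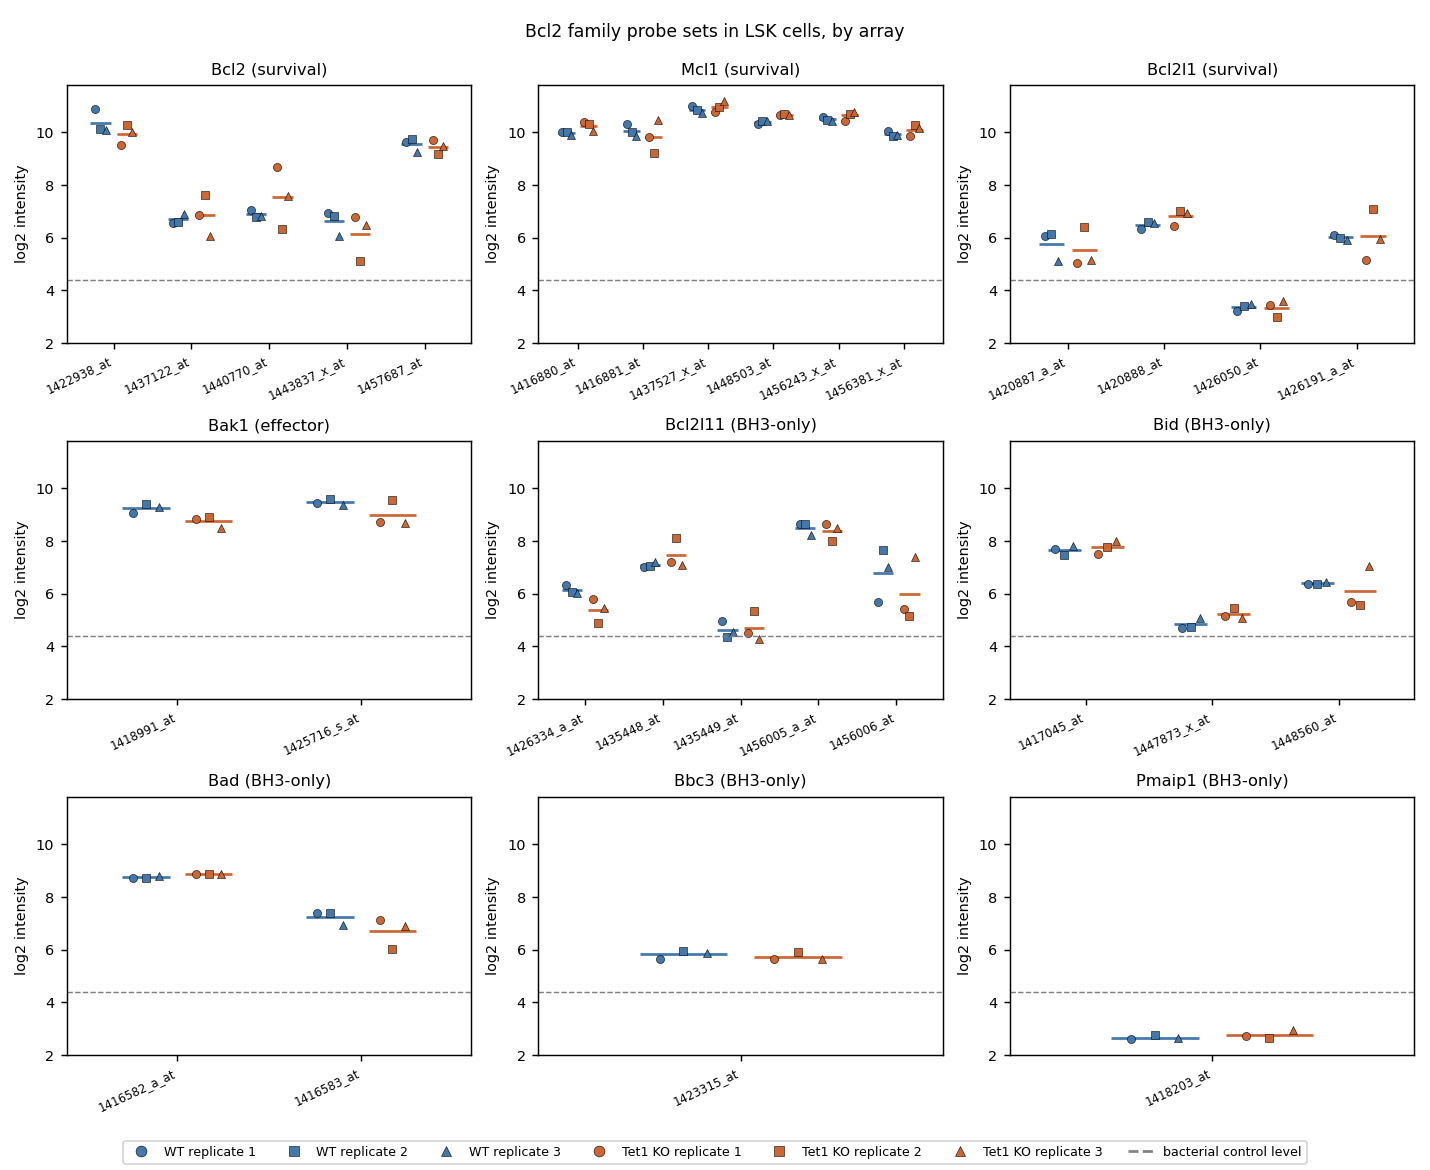
Log2 intensity (y axis) of each member probe set (x axis) on the 3 WT arrays (blue) and the 3 Tet1 KO arrays (orange), with 1 panel per gene, marker shape for the replicate, short lines for group means and a dashed line at the bacterial control level of 4.39. Groups overlap at most probe sets, and Pmaip1 lies below the dashed line on all arrays.

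Among the effectors, Bak1 was measured by 2 probe sets, and both means were lower in Tet1 KO. At 1418991_at the WT arrays read 9.06, 9.40 and 9.29, and the Tet1 KO arrays read 8.84, 8.91 and 8.51. The groups did not overlap there, with Tet1 KO lower throughout. The difference was -0.50, or 1.41-fold lower, with a standard error of 0.18, an unadjusted p of 0.0293 and an adjusted p of 0.686 in limma. The exact permutation p was 0.1, the smallest 3 against 3 can give. At 1425716_s_at, whose suffix marks probes that can match transcripts of more than 1 gene, the WT arrays read 9.43, 9.60 and 9.39. The Tet1 KO arrays read 8.73, 9.54 and 8.69 there. Replicates 1 and 3 lay well under all WT arrays, while replicate 2 lay among them. The difference was -0.48 with a standard error of 0.26 and an unadjusted p of 0.102 in limma. Leaving out Tet1 KO replicate 2 gave -0.76, and leaving out replicate 1 or 3 of that group gave -0.36 or -0.34. The difference at 1418991_at was -0.37 with cyclic loess, at an unadjusted p of 0.101 in limma, and -0.36 in the 4 Xist-high arrays.

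Among the survival genes, Mcl1 had 6 probe sets, of which 5 had a higher mean in Tet1 KO and 1 a lower one. The largest differences were near-equal at 2 probe sets. At 1448503_at the WT arrays read 10.32, 10.44 and 10.42, and the Tet1 KO arrays read 10.64, 10.68 and 10.67. The groups did not overlap, and the 3 Tet1 KO arrays were close together, with an SD of 0.02 against 0.07 in WT. The difference was 0.27, or 1.21-fold, with a standard error of 0.13, an unadjusted p of 0.0852 and an adjusted p of 0.686 in limma. That fit draws the small spread of this probe set toward the spread of all probe sets. At 1416880_at the WT arrays read 10.02, 10.01 and 9.90, and the Tet1 KO arrays read 10.39, 10.32 and 10.03. The groups did not overlap there, although Tet1 KO replicate 3 was only just above the highest WT array, and the difference was 0.27 with a standard error of 0.16. The remaining probe sets of Mcl1 overlapped between groups. Those with the suffix _x_at, whose probes can match other sequences, gave 0.12, 0.15 and 0.17. The probe set 1416881_at went the other way, with 10.33, 10.02 and 9.86 in WT and 9.82, 9.23 and 10.45 in Tet1 KO. It differed by -0.23 (SE 0.32) and by 0.070 without Tet1 KO replicate 2, the lowest array. The difference at 1448503_at lay between 0.23 and 0.38 over all alternative settings. Its unadjusted p in limma ran from 0.0237 with cyclic loess to 0.223 in the Xist-high arrays alone. That p was under 0.05 only with cyclic loess and, at 0.0451, with the intensity trend.

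Bcl2 had 5 probe sets, and its groups overlapped at each. At 1422938_at the WT arrays read 10.89, 10.11 and 10.10, and the Tet1 KO arrays read 9.51, 10.27 and 10.01. WT replicate 1 was the highest array and Tet1 KO replicate 1 the lowest, while the other 4 arrays lay within 10.01 to 10.27. The difference was -0.44 with a standard error of 0.30 and a 95% interval from -1.15 to 0.27, and it ran from -0.17 without WT replicate 1 to -0.60 without Tet1 KO replicate 2. At 1457687_at the groups read 9.55 ± 0.26 and 9.45 ± 0.28 (SD, n = 3 each). At 1440770_at the WT arrays read 7.07, 6.77 and 6.82, and the Tet1 KO arrays read 8.69, 6.34 and 7.58. The Tet1 KO arrays covered both the highest and the lowest value there. The difference was 0.65 with a standard error of 0.55. It was 0.076 without Tet1 KO replicate 1, the highest array, and 1.25 without Tet1 KO replicate 2, at an adjusted p of 0.593 in limma. The other probe sets gave 0.15 at 1437122_at and -0.50 at 1443837_x_at. The former was -0.23 and the latter 0.012 without Tet1 KO replicate 2, and the former was 0.54 if Tet1 KO replicate 3 was left out, the latter -0.83 if Tet1 KO replicate 1 was. The mean of the 5 probe sets differed by -0.05.

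Bcl2l1, the gene of Bcl-xL, on which erythroid cells and platelets depend, had 4 probe sets with overlap at each. At 1420888_at the WT arrays read 6.32, 6.60 and 6.55, and the Tet1 KO arrays read 6.45, 7.02 and 6.95. Replicates 2 and 3 of Tet1 KO were above all WT arrays, and replicate 1 lay within them. The difference was 0.32 with a standard error of 0.20 and an unadjusted p of 0.162 in limma, and it was 0.49 without Tet1 KO replicate 1 but 0.21 if Tet1 KO replicate 2 was left out. At 1426191_a_at the WT arrays lay close together at 6.11, 6.00 and 5.92, while the Tet1 KO arrays spread over 5.15, 7.09 and 5.94. That probe set differed by 0.05 with a standard error of 0.46, and from -0.47 without Tet1 KO replicate 2 to 0.50 without Tet1 KO replicate 1. The probe set 1420887_a_at gave -0.25 with a standard error of 0.44, and from -0.0033 without Tet1 KO replicate 1 to -0.69 without Tet1 KO replicate 2. Its arrays fell into high values of 6.06 and 6.15 in WT replicates 1 and 2 and 6.39 in Tet1 KO replicate 2, and low values of 5.03 to 5.16 on the other 3. The fourth, 1426050_at, read under the control level on all arrays, at 3.00 to 3.60.

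**Figure D2:**
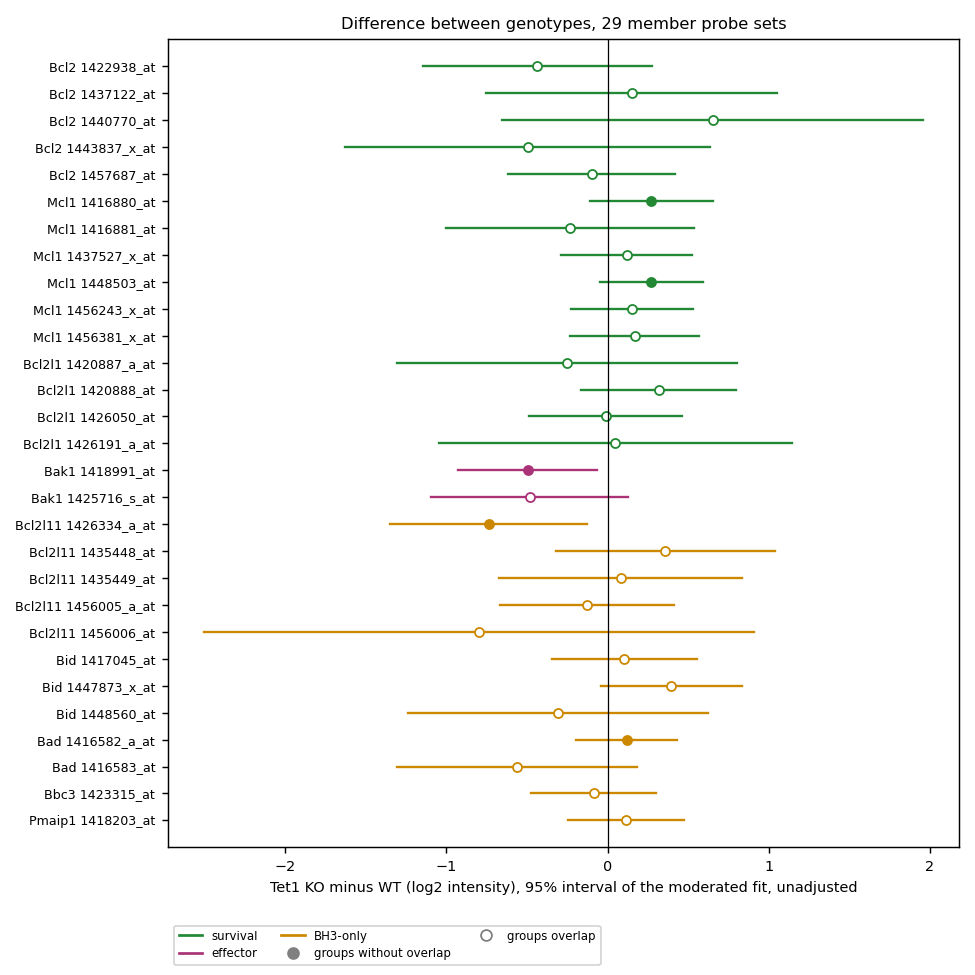
Difference between Tet1 KO and WT (x axis, log2 intensity) for the 29 member probe sets (y axis), with lines for the unadjusted 95% interval of the moderated fit, colours for the role and filled points where the groups did not overlap. The intervals of 1 Bak1 and 1 Bcl2l11 probe set lie wholly below 0, and those of the other 27 cross it.

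Of the BH3-only genes, Bcl2l11 had the member probe set with the smallest p. At 1426334_a_at the WT arrays read 6.33, 6.05 and 6.04, and the Tet1 KO arrays read 5.82, 4.90 and 5.48. The groups did not overlap, and Tet1 KO replicate 2 was the lowest array. Its value of 4.90 was close to the brightest bacterial control of that array, 4.87. The difference was -0.74, or 1.67-fold lower, with a standard error of 0.26, an unadjusted p of 0.0247 and an adjusted p of 0.686 in limma. It was -0.49 without Tet1 KO replicate 2, at an unadjusted p of 0.0360 in limma. The unadjusted p was 0.0809 without WT replicate 1, 0.0503 without WT replicate 2 and 0.0829 in the 4 Xist-high arrays. The other probe sets of Bcl2l11, a gene with many splice forms, overlapped between groups, with 2 lower and 2 higher means in Tet1 KO. At 1435448_at the WT arrays read 7.03, 7.06 and 7.22, and the Tet1 KO arrays read 7.21, 8.10 and 7.07. Only Tet1 KO replicate 2 stood above the WT range there, and the difference was 0.36 with a standard error of 0.28, or 0.04 to 0.61 over the alternative settings. The probe set 1456005_a_at gave -0.13 with a standard error of 0.23, and 1435449_at gave 0.08 with a standard error of 0.31. The latter was dim, and read under the bacterial control level on WT replicate 2, at 4.36, and Tet1 KO replicate 3, at 4.29. The last, 1456006_at, spread widely within each group, from 5.70 to 7.65 in WT and from 5.15 to 7.38 in Tet1 KO, and its difference of -0.80 had a standard error of 0.71. Without single arrays it ran from -0.37, without WT replicate 2, to -1.49, without Tet1 KO replicate 3, with -0.52, -0.38 and -1.34 when Tet1 KO replicate 1, Tet1 KO replicate 2 or WT replicate 1 was left out.

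Bid, which links death receptors to mitochondria, had 3 probe sets. At 1447873_x_at, a dim probe set just above the control level, the WT arrays read 4.71, 4.73 and 5.07, and the Tet1 KO arrays read 5.17, 5.46 and 5.07. The groups met at 5.07, the value of replicate 3 on both sides. The difference was 0.40 with a standard error of 0.18 and an unadjusted p of 0.0685 in limma. At 1448560_at the WT arrays read 6.39, 6.37 and 6.44, and the Tet1 KO arrays read 5.67, 5.57 and 7.04. Replicates 1 and 2 of Tet1 KO lay below all WT arrays and replicate 3 above them, so the SD was 0.82 in Tet1 KO against 0.04 in WT. The difference of -0.31 had a standard error of 0.39. Leaving out Tet1 KO replicate 2 gave -0.046, leaving out replicate 1 of that group gave -0.095, and leaving out its replicate 3 gave -0.78, the last at an adjusted p of 0.551 in limma. Tet1 KO replicate 3 is the Xist-low array of its group, and in the 4 Xist-high arrays the difference was -0.76. The third probe set, 1417045_at, gave 0.10 with a standard error of 0.19.

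The 2 probe sets of Bad, a BH3-only protein that survival signals hold inactive, went in opposite directions. At 1416582_a_at the WT arrays read 8.73, 8.73 and 8.79, and the Tet1 KO arrays read 8.86, 8.86 and 8.88. The groups did not overlap, but the difference was only 0.12, or 1.09-fold, with a standard error of 0.13 and an unadjusted p of 0.400 in limma. At 1416583_at the WT arrays read 7.41, 7.41 and 6.95, and the Tet1 KO arrays read 7.12, 6.05 and 6.91. Tet1 KO replicate 2 was the lowest there and the groups overlapped. The difference was -0.56 with a standard error of 0.31, with -0.24 without that array and -0.78 without Tet1 KO replicate 1. The mean of both probe sets differed by -0.22.

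Bbc3 and Pmaip1, BH3-only genes that p53 can induce, had 1 probe set each. Bbc3 read 5.64, 5.96 and 5.88 in WT and 5.66, 5.90 and 5.66 in Tet1 KO. The groups covered nearly the same range, and the difference of -0.09 had a 95% interval from -0.48 to 0.30. Pmaip1 read 2.62 to 2.75 in WT and 2.67 to 2.95 in Tet1 KO. All 6 arrays were below the bacterial control level, so a difference in Pmaip1 could not be measured by this probe set.

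For each probe set the array farthest from the median of the other 5 was found. This was Tet1 KO replicate 2 at 16 of the 29 member probe sets, or 55.2%, against 44.1% of all probe sets. It was replicate 3 of Tet1 KO at 6, or 20.7%, against 15.7% of all. WT replicate 3 was farthest at 0 member probe sets, against 8.89% of all. On Tet1 KO replicate 2 the members deviated from their means over all arrays by a median of 0.38 in absolute size, against 0.13 to 0.23 on the other 5 arrays. Over all probe sets the same measure was 0.31 on that array and 0.15 to 0.18 on the others. Its deviations went both ways within a gene, from -0.87 at 1426334_a_at to 0.82 at 1435448_at for Bcl2l11. Probe sets at the 3′ and 5′ ends of control transcripts also differed on this array. The 3′ minus 5′ difference of the transferrin receptor was -3.01 there and -2.38 to -0.81 on the other arrays, that of beta-actin was -0.33 against -0.15 to 0.09, and that of Gapdh was 1.22 against 1.36 to 1.90. Probe sets were named as on a 3′ array, while the labels name whole-transcript labelling kits, so what a 3′ minus 5′ difference measures here is uncertain. The part of RNA quality in the values of the members was not tested.

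**Figure D3:**
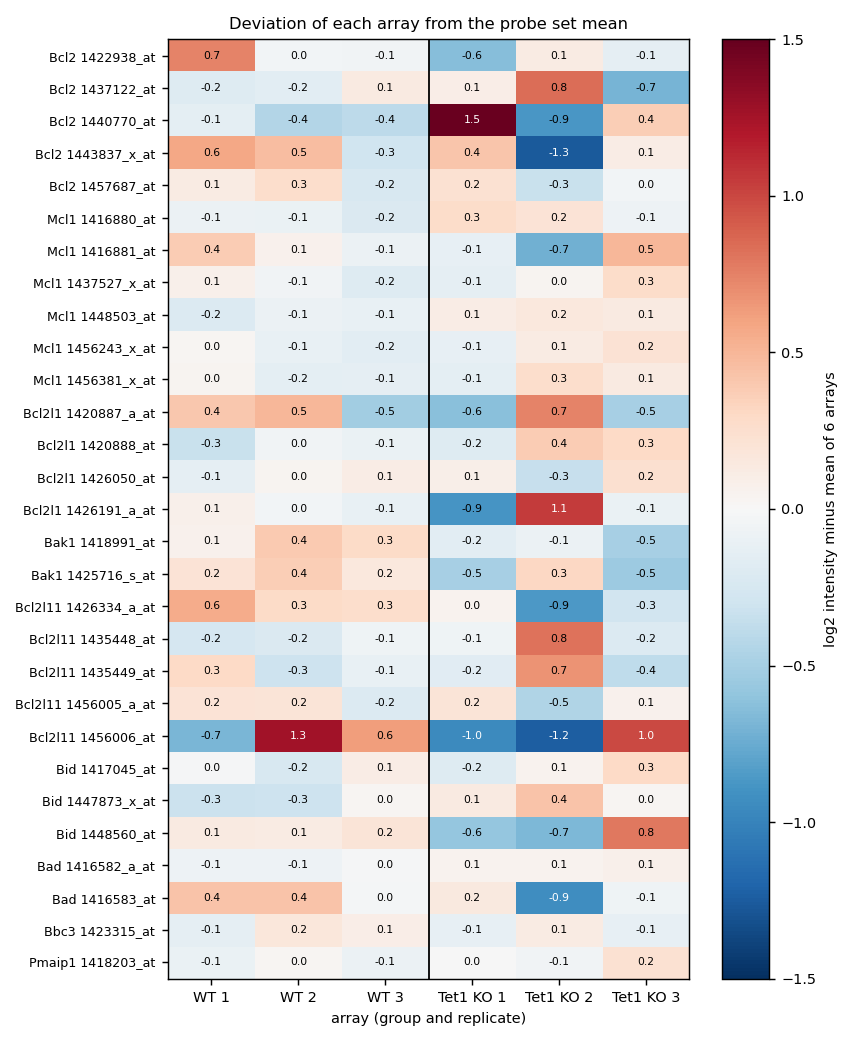
Deviation of each array (columns) from the mean of its probe set over 6 arrays (rows), in log2 intensity, with red above and blue below the mean and a black line between WT and Tet1 KO. The column of Tet1 KO replicate 2 holds strong colours of both signs, including 1.1 for Bcl2l1 1426191_a_at and -1.3 for Bcl2 1443837_x_at, while Mcl1 and Bad 1416582_a_at are pale throughout apart from Mcl1 1416881_at.

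The pattern of Bcl2l11 at 1426334_a_at over the 6 arrays was compared with the brightest probe set of 18192 other genes. Likeness was the root mean square difference after each probe set's mean was subtracted. The nearest genes were Rsu1 at 0.0945, Tceal1 at 0.0983 and Txn2, which encodes mitochondrial thioredoxin, at 0.0999, where the median over all genes was 0.561. Each of the 3 also had its lowest value on Tet1 KO replicate 2.

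Beyond the members, 56 further genes of the pathway were listed, of which 48 were measured, each by its brightest probe set. At an unadjusted p under 0.05 in limma there were 3, with 1 higher and 2 lower, where 6.73% of all genes reached that level, 3.02% higher and 3.7% lower. Groups did not overlap at 9 of the 48, or 18.8%, against 17.1% of all genes. Of these 9, 2 were higher and 7 lower in Tet1 KO, where 1868 of 18193 genes were higher and 1252 lower. The list's median difference was -0.02, against 0.05 over all genes, and 0 genes passed the adjusted test. Bcl2l2 (Bcl-w), another survival protein, read 6.30, 6.36 and 6.78 in WT and from 7.001 to 7.28 in Tet1 KO at 1423572_at. The groups did not overlap, and the difference was 0.63 with a standard error of 0.19, an unadjusted p of 0.0134 and an adjusted p of 0.686 in limma. Its other 3 probe sets also had higher means in Tet1 KO, at 0.38, 0.59 and 0.32. Mdm4, an inhibitor of p53, read 8.45, 8.75 and 8.16 in WT and 7.71, 7.65 and 7.93 in Tet1 KO at 1419558_at, at -0.69 between means (SE 0.20). Its probe sets disagreed, since 1460542_s_at gave 0.84 with a standard error of 0.30, with no overlap in that direction either. Endog, a mitochondrial nuclease, differed by -0.60 with a standard error of 0.20 at 1438317_a_at and by -0.37 at its other probe set. None of these 3 passed the adjusted test.

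The remaining roles of the pathway are given by counts of means, beside 56.5% higher and a median difference of 0.05 over all genes. Both group means were below the bacterial control level at 4890 of 18193 genes, but at 4 of the 48 listed and 0 of the 13 upstream regulators. In the fits to probe sets above that level or above the median level, the median difference was -0.04 or -0.08. A background of matched level was not made for each role. Of the other BH3-only genes Bmf, Bik and Hrk, 3 of 3 had higher means, with 0 at an unadjusted p under 0.05 in limma. Among the apoptosome and caspase genes 2 of 5 had higher means, with a median of -0.42 and 0 at that level. Of the caspase inhibitors and their antagonists 2 of 6 were higher and 0 reached that level. Birc5 (survivin), which is also a gene of dividing cells, gave -1.32 with a standard error of 0.57, as the WT arrays spread with an SD of 1.22. Among the upstream regulators 10 of 13 had lower means, with a median of -0.27 and 1 at that level, Mdm4. In the death receptor arm 3 of 8 were higher, with 0 at that level. Leaving out Tet1 KO replicate 1 or Tet1 KO replicate 3 raised the count of 3 to 6, while the share of all probe sets at that level went from 6.81% to 10.3% and 8.61%.

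**Figure D4:**
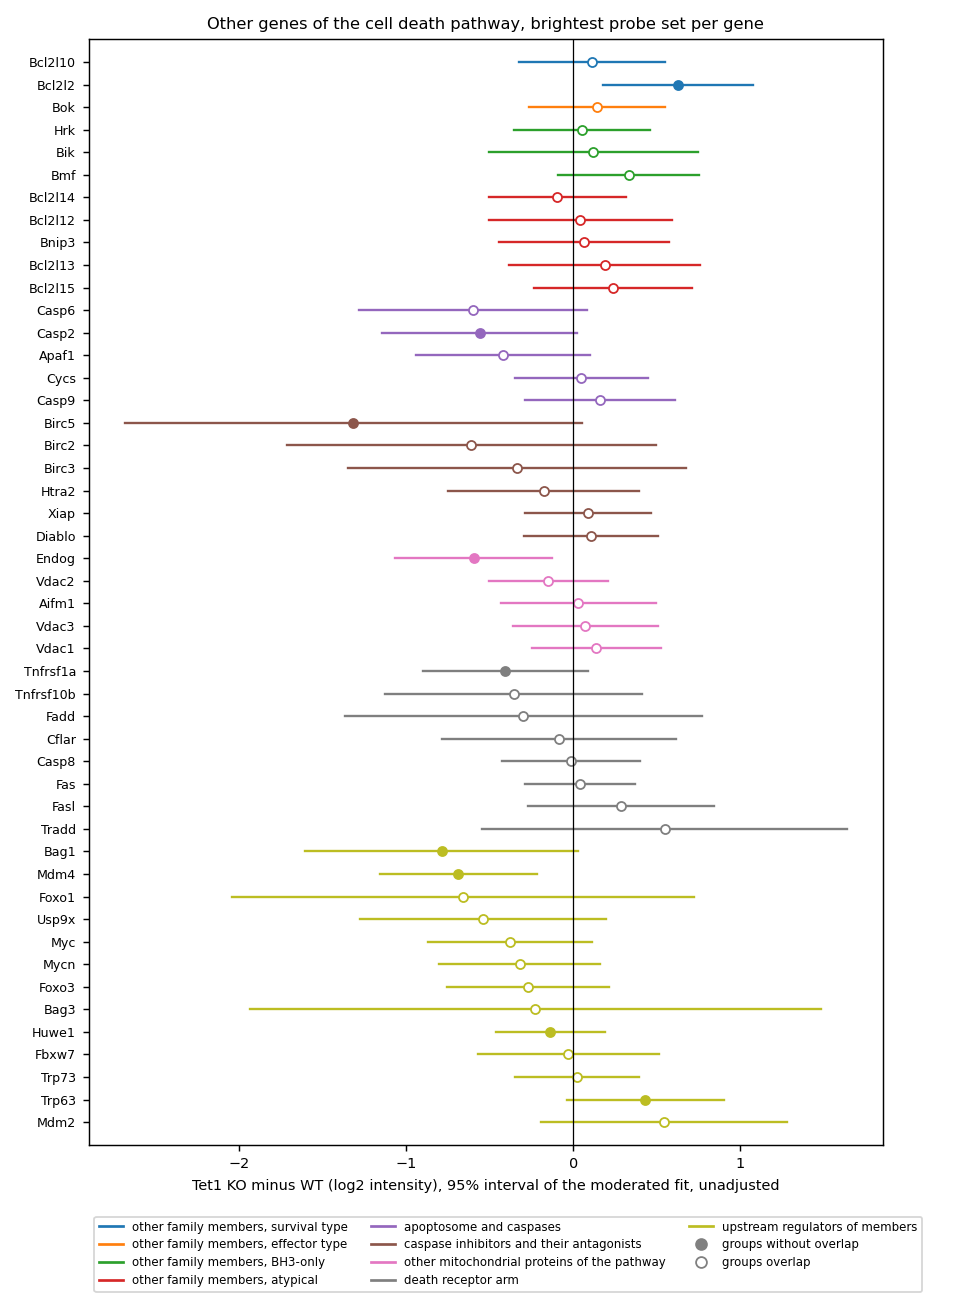
Difference between Tet1 KO and WT (x axis, log2 intensity) for the brightest probe set of 48 further pathway genes (y axis), with lines for the unadjusted 95% interval, colours for the role and filled points where the groups did not overlap. The intervals of Bcl2l2, Mdm4 and Endog exclude 0, and filled points are seen at 9 genes.

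Markers of other blood cells were set beside these values, because members of the family differ between lineages. Over 7 measured markers of monocytes, macrophages and dendritic cells, 4 had higher and 3 lower means in Tet1 KO. The mean log2 intensity of that list was 6.71 to 6.84 on the WT arrays and 6.14 to 6.69 on the Tet1 KO arrays, without overlap. Its 7 markers had a median difference of 0.00046. Over all genes, 17.1% did not overlap between groups at their brightest probe set. That share is for single probe sets, and none was made for means over several markers. For 7 B cell markers, 5 higher and 2 lower, the ranges were 5.84 to 6.09 and 6.01 to 6.78. For the 8 measured LSK markers, 3 higher and 5 lower, they were 9.22 to 9.54 and 9.29 to 9.46. The other 5 lists overlapped between groups as well. Means were higher in Tet1 KO for 6 of 7 neutrophil markers, with a median difference of 0.39, for 5 of 6 mast cell and basophil markers, with 0.39, and for 5 of 6 T and NK cell markers, with 0.18. Both group means were below the bacterial control level for 3 T and NK cell and 2 mast cell and basophil markers. The same held for 1 marker each of the neutrophil, B cell, monocyte and erythroid lists. Differences at such markers could not be measured. Erythroid markers had 3 of 6 higher and megakaryocyte markers 3 of 7. At an unadjusted p under 0.05 in limma there were 2 monocyte and 2 B cell markers. The T and NK cell, megakaryocyte and mast cell lists had 1 each, and the LSK, neutrophil and erythroid lists 0. Of all genes, 6.73% reached that level at their brightest probe set. The part of cell composition in the values of Bak1 and the other members was not tested. In sorted pools fewer cells of a type and less RNA per cell cannot be told apart.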

How the data were processed

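For each sample of sorted LSK cells, cDNA made from 125 ng of RNA was labelled and hybridised to 1 Affymetrix array, per the labels' protocols. The deposited table held log2 intensities for 45101 probe sets, including 64 controls that were left out of the fit. A log2 scale fits their range, 1.50 to 14.6, and the medians of the arrays spanned 0.0694. The authors' background correction, normalization and summarization of these log2 values are not stated in the sources at hand, and values were used as deposited. Genes came from the platform annotation, by which 34945 probe sets had 1 symbol, 932 several and 9160 none listed. Samples were grouped and numbered by title.

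Genotype was the only term in lmFit and eBayes of limma 3.58.1 under R 4.3.3, two-sided, with Benjamini-Hochberg adjustment over 45037 probe sets. The fit was tested on simulated data. Alternatives were quantile, equal-median and cyclic loess normalization, filters on level, eBayes with a trend on level, alone or robust, weights per array, a block for replicate number, 1 or the mean of probe sets per gene, and omission of each array. An Xist-low state as a block and the Xist-high arrays alone were added after seeing the data. The members and lists were chosen with earlier results of these data known. Every member probe set was named, as were pathway genes at an unadjusted p under 0.05, at most 10, and the 3 genes most like the member with the smallest p. The number of arrays limits the precision. Figures were drawn with matplotlib 3.10.9.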

Additional observations from a re-analysis of the deposited data

How the results depend on the processing

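Of the 29 member differences, 17 kept their sign in each alternative that gave a value, and 0 of 505 values passed the adjusted test. The signs of both Bak1 probe sets, of Bcl2l11 1426334_a_at and of Mcl1 1448503_at and 1416880_at are among those kept. The values include means of probe sets per gene, each set against the brightest probe set of its gene. The sign turned in 24 values, and apart from that of Bad the cause was not tested. With quantile normalization Pmaip1 was at -0.017. With cyclic loess Bcl2 1457687_at was at 0.027, Bcl2l11 1435449_at at -0.026, Bcl2l11 1456005_a_at at 0.0012 and Pmaip1 at -0.037. With array weights, which gave Tet1 KO replicate 2 the lowest weight, 0.259, Bcl2 1437122_at was at -0.044, Bcl2l1 1426050_at at 0.10, Bcl2l1 1426191_a_at at -0.33 and Bcl2l11 1435449_at at -0.10. With the mean of probe sets Bad was at -0.22, since the 0.12 of 1416582_a_at was averaged with the -0.56 of 1416583_at. In the Xist-high arrays alone Mcl1 1437527_x_at was at -0.057. Over the fits that left out 1 array each, the ranges that crossed 0 were -0.23 to 0.54 for Bcl2 1437122_at, -0.83 to 0.012 for Bcl2 1443837_x_at, -0.25 to 0.045 for Bcl2 1457687_at, -0.54 to 0.070 for Mcl1 1416881_at, -0.14 to 0.16 for Bcl2l1 1426050_at, -0.47 to 0.50 for Bcl2l1 1426191_a_at, -0.24 to 0.29 for Bcl2l11 1435449_at, -0.26 to 0.065 for Bcl2l11 1456005_a_at and -0.019 to 0.23 for Bid 1417045_at.

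The count of member probe sets at an unadjusted p under 0.05 in limma was 2, where 6.81% of all probe sets reached that level. With quantile normalization the count was 1 and the share 5.56%, and with array weights 4 and 7.53%. The replicate block gave 1, with a share of 5.32%. With the brightest probe set per gene it was 0 of 9, against 7.21% of all genes. With the mean of probe sets it was 1 of 9, against 7.95%. When arrays were left out the count ran from 0 to 4 and the share from 3.46% to 10.3%. Over all probe sets, deviations from the group means correlated at 0.013, -0.0063 and 0.00054 between same-numbered samples 1, 2 and 3. Between samples of unlike number the correlations ran from -0.028 to 0.021. The numbers were not taken as pairs, although correlations over all probe sets cannot exclude a pairing that touches some genes. Same-numbered samples do share their Xist state, low in replicate 3 and high in replicates 1 and 2. The count of further pathway genes, 3, was 5 with the intensity trend, with and without robust estimation. The share of all probe sets at that level was then 7.17% and 7.27%. The count was 5 with the mean of probe sets, against 7.95% of all genes. It was 5 with the Xist-low state as a block, against 5.80% of all probe sets. When arrays were left out it ran from 3 to 6, with shares of 3.46% to 10.3%. Among all probe sets, 1, which is no member, passed adjustment with the intensity trend and 1 when it was made robust. It was 0 in each other setting. In the main fit 3065 probe sets had an unadjusted p under 0.05 in limma, and 47.4% of them were higher in Tet1 KO. In the fit to probe sets above the bacterial control level, 29.7% of 1713 were higher. The share was 24.6% of 1380 above the median level and 37.1% of 2396 with the replicate block. The group means of 2 member probe sets, Bcl2l1 1426050_at and Pmaip1, lay below the bacterial control level.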
